A study of Mus musculus with 8 samples.

Results

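Il21 encodes interleukin-21, a cytokine secreted by activated CD4 T cells, and Il21r encodes the specific chain of its receptor. Both were followed in mouse T helper cells as 2 of the 19938 genes measured, chosen as the probe sets annotated with exactly one of these symbols. Each gene had 1 such probe set, so no choice between probe sets was needed. The values are log2 probe-set signals from an Affymetrix whole-transcript array, and 1 unit is a 2-fold difference. The study concerns Tet2, whose protein converts methylcytosine to its oxidized forms, in the differentiation of T helper subsets.

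There were 4 groups of 2 arrays, described in the titles as biological replicates. Wild-type Th1 and wild-type Th17 cells came from Tet2(f/f) mice, which carry loxP-flanked Tet2 alleles and no Cre. Tet2-deficient Th1 and Th17 cells came from CD2(Cre)Tet2(f/f) mice, so all groups share the floxed allele and only the deficient ones carry Cre. CD2 control directs Cre to lymphocytes. The labels used here give neither the age or number of mice behind an array nor the culture conditions. In bulk RNA, fewer cells expressing a gene and less RNA per cell cannot be told apart.

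Interleukin-21 belongs to the cytokine family whose receptors share the common gamma chain. It is bound by the Il21r product together with that chain, and the signal runs through Janus kinases to STAT proteins, chiefly STAT3. Th17 cells and follicular helper T cells are known sources of interleukin-21, which can act back on the Th17 cells that make it and on B cells, natural killer cells and CD8 T cells.

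The Il21 promoter is shown because Tet2 acts on methylated cytosine, mostly in CpG dinucleotides, and because Il21 had the larger subset difference of the pair. The 250 bases before its start site, on the minus strand of chromosome 3 (chr3:37232637-37232886, GRCm38.p6, RefSeq), are given 5′ to 3′ with every CpG in capitals.
Il21 promoter: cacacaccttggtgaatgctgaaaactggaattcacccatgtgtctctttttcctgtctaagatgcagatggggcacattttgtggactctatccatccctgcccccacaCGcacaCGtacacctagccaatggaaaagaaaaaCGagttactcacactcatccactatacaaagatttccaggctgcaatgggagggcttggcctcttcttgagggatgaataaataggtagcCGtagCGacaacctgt

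This window held 5 CpGs, which begin 140, 134, 106, 16 and 11 bases before the start site. The same length before the Il21r start site in the RefSeq promoter table (chromosome 7, plus strand, 125603179 to 125603428), which reaches into the annotated gene and is not printed, held 4 CpGs, and the median over 32851 RefSeq promoters of this length was 6. Both genes therefore had slightly fewer CpGs than the median promoter. The core letters GGAAA, known from sites of the NFAT factors, occurred 3 times before Il21 on either strand and 0 times before Il21r, and 55.6% of all promoters held at least 1. The letters TGCTGA, part of the site of Maf factors, occurred once before Il21, 234 bases from the start site, where 16.1% of promoters held a match. AGGTCA, the core of ROR sites, occurred once before Il21r and 0 times before Il21 (14.02% of promoters). TGANTCA of AP-1 (6.75% of promoters), TTCNNNGAA of STAT proteins (7.02%) and TCACACC, part of the site of T-box factors, (3.33%) had 0 matches in either window. No match listed here overlapped another. Methylation was not measured on these arrays, and a match describes letters only.

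The labelled subsets were checked by their markers, and the members of these lists were chosen with earlier results known. Of 11 T cell markers measured, 10 lay above the median gene on every array. All 7 Th17 markers measured, among them Il17a, Il17f, Il23r and Ccr6, were higher in Th17 than in Th1 cells in both genotypes. Of 8 Th1 markers, 5 (Ifng, Tbx21, Il12rb2, Eomes and Gzmb) were lower in Th17 cells in both genotypes, and Il18r1 was higher in Tet2-deficient Th17 cells. Over all genes, 8.4% were called in wild-type and 10.1% in Tet2-deficient cells at an adjusted p under 0.05 (limma). The Tet2 probe set read 7.98 to 8.14 on the Th1 and 8.34 to 8.51 on the Th17 arrays with no call between genotypes. These values therefore do not show the loss of Tet2. The probe set may lie outside the deleted part, which was not tested. The Th17 arrays differed in their share of female RNA. On a relative scale from the linear signal of Xist, the RNA that coats a silenced X chromosome, with the lowest array set to 0% and the highest to 100%, the female share of Th17 RNA was 0.317% and 43.0% for wild-type cells and 14.8% and 100% for cells lacking Tet2. It was at most 0.236% on the Th1 arrays.

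Il21 was expressed more highly in Th17 than in Th1 cells, in both genotypes. Among Th1 arrays its log2 signal was 9.72 and 9.47 for the wild type, against 8.78 and 9.30 for cells lacking Tet2. Among Th17 arrays the wild type read 11.31 and 11.26, and cells lacking Tet2 read 11.00 and 10.73. All 4 Th17 arrays thus lay above all 4 Th1 arrays, the lowest Th17 array at 10.73 and the highest Th1 array at 9.72. Over all genes, 12.7% were separated in this direction. The order of the group means was wild-type Th17 (11.28 ± 0.04, SD, n = 2), Tet2-deficient Th17 (10.86 ± 0.19), wild-type Th1 (9.59 ± 0.18) and Tet2-deficient Th1 (9.04 ± 0.37). Arrays of neighbouring groups in this order did not overlap. Tet2-deficient arrays lay below wild-type ones in Th17 cells for 14.1% of all genes, in Th1 cells for 13.7% and in both for 1.94%. The share of genes with this full order was not counted. The steps between genotypes did not pass a test, and the step from Tet2-deficient Th17 to wild-type Th1 cells was not tested.

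**Figure D1:**
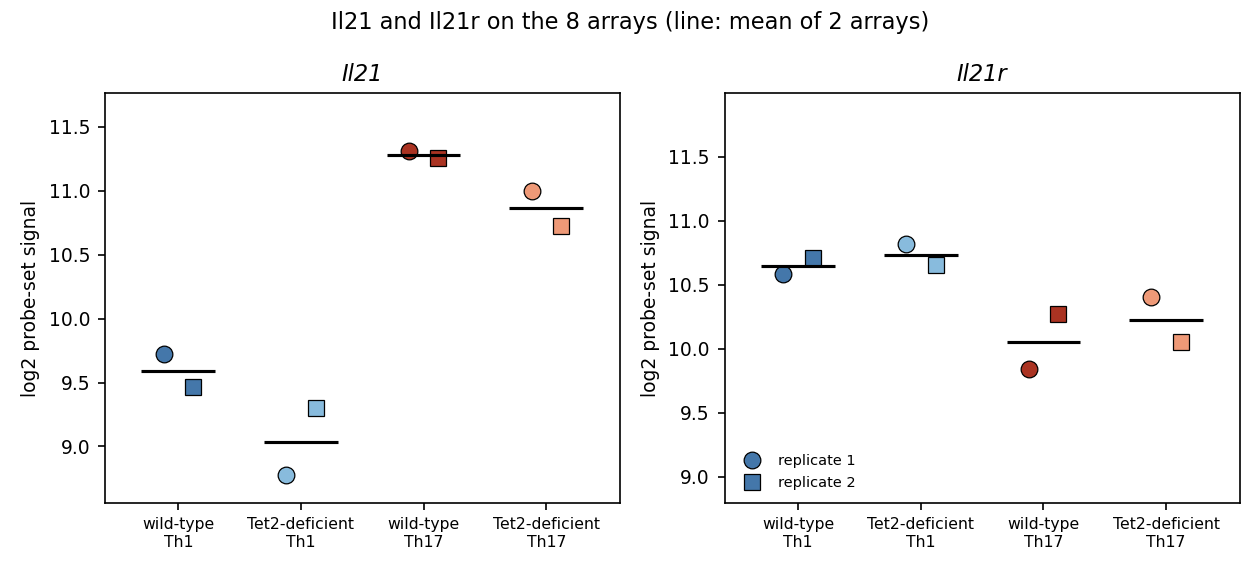
Log2 probe-set signal of Il21 (left) and Il21r (right) on each of the 8 arrays, by group; circles are replicate 1, squares replicate 2, and lines the mean of 2 arrays. Both panels span the same range of log2 units. Il21 lies higher on the 4 Th17 arrays (10.73 to 11.31) than on the 4 Th1 arrays (8.78 to 9.72), and Il21r lies lower on them.

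In wild-type cells Il21 was 3.22-fold higher in Th17 than in Th1 cells, a log2 difference of 1.69 ± 0.17 (SE, 95% interval 1.32 to 2.06, adjusted p = 7.2e-05, limma). In Tet2-deficient cells it was 3.54-fold higher, 1.82 ± 0.17 (1.45 to 2.20, adjusted p = 3.8e-05). These calls stand against 4.97% and 6.32% of all genes called higher. The subset difference of Il21 was 0.13 ± 0.24 larger in Tet2-deficient than in wild-type cells, with a 95% interval of -0.39 to 0.66 (adjusted p = 0.999). An interval this wide does not show that the subset difference was alike in both genotypes. The calls on Il21 held under all 18 alternatives in either genotype, and with any array left out the difference stayed between 1.56 and 2.08. The wild-type difference was 1.71 without replicate 2 of wild-type Th17 cells, when the remaining Th17 array had the 0.317% female share.

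Il21r ran the other way, with less signal in Th17 than in Th1 cells. Among Th1 arrays the wild type read 10.58 and 10.71 on the log2 scale, and cells lacking Tet2 read 10.82 and 10.65. Among Th17 arrays the readings were 9.84 and 10.27 for the wild type, against 10.40 and 10.05 for cells lacking Tet2. The 4 Th17 arrays lay below the 4 Th1 arrays, as they did for 11.9% of all genes, but the gap between the closest arrays was small, from 10.40 to 10.58. By group mean the order was Tet2-deficient Th1 (10.73 ± 0.12, SD, n = 2), wild-type Th1 (10.64 ± 0.09), Tet2-deficient Th17 (10.22 ± 0.25) and wild-type Th17 (10.06 ± 0.30). Within a subset the arrays of both genotypes overlapped, so the genotypes had no order beyond their spread.

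In wild-type cells Il21r was lower in Th17 cells by a log2 difference of -0.59 ± 0.17 (95% interval -0.95 to -0.23, adjusted p = 0.0468, limma), where 3.44% of genes were called lower. In Tet2-deficient cells it was -0.51 ± 0.17 (-0.87 to -0.15, adjusted p = 0.0718) and did not pass, where 3.79% were called lower. The 2 subset differences of Il21r were 0.08 ± 0.23 apart (95% interval -0.43 to 0.59, adjusted p = 0.999), so a pass in one genotype alone does not show that the genotypes differ. The wild-type call rests on the full set of arrays: it ended when any array other than replicate 2 of wild-type Th17 cells was left out. The adjusted p was then 0.0931 and 0.138 without wild-type Th1 replicates 1 and 2 and 0.266 without wild-type Th17 replicate 1 (log2 difference -0.37). Leaving out replicate 1 or 2 of Tet2-deficient Th1 cells gave 0.0580 or 0.0581, and leaving out replicate 1 or 2 of Tet2-deficient Th17 cells gave 0.0548 or 0.0549. Without wild-type Th17 replicate 2 it was 0.0357, with a difference of -0.80.

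Averaged over both genotypes, a comparison added after the values were seen, Il21r was 1.46-fold lower in Th17 cells, -0.55 ± 0.12 (95% interval -0.80 to -0.30, adjusted p = 0.0056). Il21 was 3.38-fold higher, 1.76 ± 0.12 (1.49 to 2.02, adjusted p = 1.0e-06). In this average 22.2% of genes were called, 9.79% lower and 12.4% higher. With any array left out Il21r stayed called, with a difference between -0.66 and -0.44, but with the female share as a covariate it was -0.50 with an adjusted p of 0.0755. By array, female shares of 0.317%, 14.8%, 43.0% and 100% in Th17 cells went with Il21r signals of 9.84, 10.40, 10.27 and 10.05. These arrays mix both genotypes, and a link between Il21r and the share was not tested on them. Markers of other cell types that can express Il21r also differed between the subsets. Of 12 myeloid and dendritic cell markers, all 12 had values below 0 for Th17 minus Th1 averaged over genotypes, and 5 were called lower (Adgre1, Fcgr3, Cd68, Mpeg1 and S100a8). Mpeg1 was called lower in each genotype (-0.72 and -1.07, adjusted p = 0.0171 and 0.0013). Of 10 natural killer and NKT cell markers, Eomes was called lower in each genotype (-1.33 and -1.40), and Klrd1 was called higher without Tet2 (1.73, adjusted p = 0.00021). No other marker on this list was called in either genotype. Eomes was also on the list of Th1 markers, so its call does not tell natural killer cells from Th1 cells. Of 9 B cell markers, 0 were called in these comparisons. Both of the 2 CD8 T cell markers had values below 0 in the average. Of these, Cd8b1 was called lower (-0.31 ± 0.09, adjusted p = 0.0217, limma), though in neither genotype alone, and Cd8a was not called (-0.09). The summed signal of the myeloid and dendritic cell markers was 9.48 to 9.68 (log2) on the Th1 and 9.24 to 9.32 on the Th17 arrays, with 11 of the 12 under the median gene on every array. The summed signal of 9 B cell markers was 8.78 to 8.98 on the Th1 and 8.74 to 8.93 on the Th17 arrays, with 7 of the 9 under the median gene. For the natural killer and NKT cell markers it was 9.37 to 9.41 on the Th1 arrays, 8.93 to 8.96 on the wild-type Th17 arrays and 9.13 to 9.37 on those lacking Tet2, with 7 of the 10 under the median gene. This sum includes Eomes, at 8.18 to 8.26 on the Th1 and 6.66 to 7.03 on the Th17 arrays. The part of these cells in the Il21r difference was not tested.

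**Figure D2:**
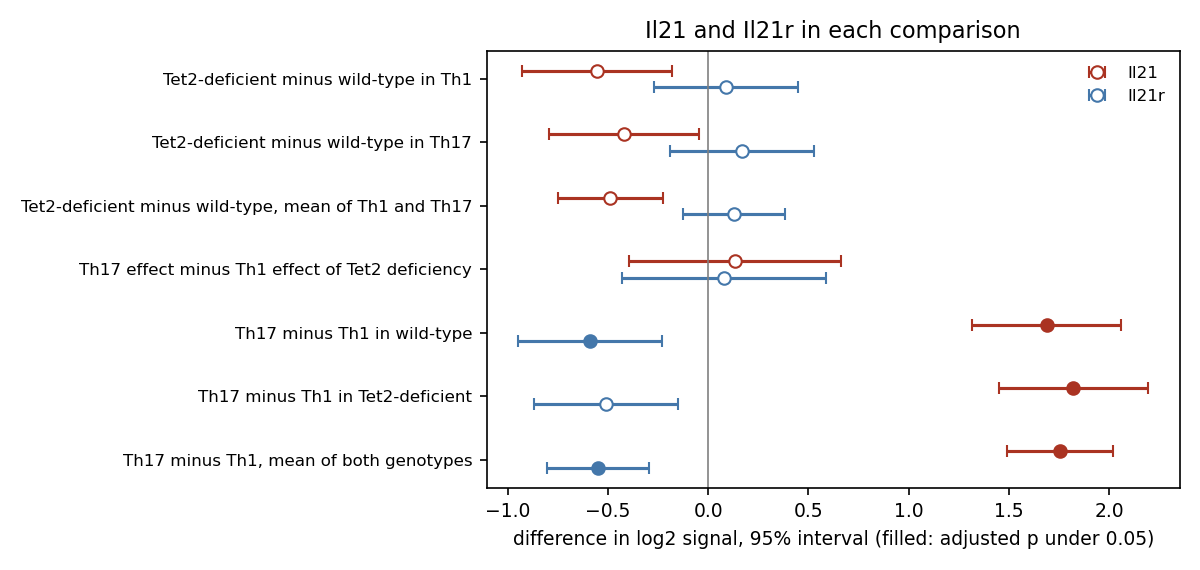
Differences in log2 signal of Il21 (red) and Il21r (blue) in 7 comparisons, with 95% intervals; filled points had an adjusted p under 0.05. Th17 against Th1 cells gave 1.69 and 1.82 for Il21 and -0.59 and -0.51 for Il21r, while no genotype comparison passed for either gene.

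Il21 signal was lower on the Tet2-deficient than on the wild-type arrays of both subsets, but neither difference passed the test across all genes. In Th1 cells the log2 difference, Tet2-deficient minus wild-type, was -0.55 ± 0.17 (95% interval -0.93 to -0.18, unadjusted p = 0.0070, adjusted p = 0.797, limma). In Th17 cells it was -0.42 ± 0.17 (-0.79 to -0.05, unadjusted p = 0.0304, adjusted p = 0.99996). Both Tet2-deficient arrays lay below both wild-type arrays in each subset. Of all genes, 13.7% were separated this way in Th1 cells, 14.1% in Th17 cells and 1.94% in both. Of all genes, 0.00502% were called in Th1 and 0% in Th17 cells, so few genes of any kind passed here. The mean of both subsets was -0.49 ± 0.12, 1.40-fold (-0.75 to -0.22, unadjusted p = 0.0016, adjusted p = 0.641), and 0% of genes were called. Il21 stood at place 51 of 19938 when genes were ordered by this p.

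The size of the genotype difference moved with single arrays. In Th1 cells Il21 was at -0.30 without Tet2-deficient replicate 1, the lowest array of all at 8.78, and at -0.81 without Tet2-deficient replicate 2. In Th17 cells it was at -0.28 without Tet2-deficient replicate 2, the array with the 100% female share, and at -0.56 without Tet2-deficient replicate 1. In a fit that took the female share as a covariate, the Th17 difference was -0.32 (unadjusted p = 0.139). The direction was the same under all alternatives run in each subset, and Il21 passed in 0 of them.

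Il21r showed a small difference of the other sign between genotypes, well within its error. Tet2-deficient minus wild-type was 0.09 ± 0.17 in Th1 cells (95% interval -0.27 to 0.45, adjusted p = 0.964) and 0.17 ± 0.17 in Th17 cells (-0.19 to 0.53, adjusted p = 0.99996). These intervals do not show that the genotypes are alike. In Th17 cells the sign turned without wild-type replicate 1 (-0.046) and without Tet2-deficient replicate 1 (-0.0059). The mean over both subsets was 0.13 ± 0.12 (adjusted p = 0.950).

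Among cytokines of the common gamma chain family, Il21 was the single member called between the subsets. All 6 were measured, Il2, Il4, Il7, Il9, Il15 and Il21, and 1 of 6 was called higher and 0 lower in Th17 cells in each genotype. Of all genes, 4.97% were called higher and 3.44% lower in wild-type cells, and 6.32% and 3.79% in Tet2-deficient cells. The median log2 difference of the list was 0.0086 for the wild type and -0.19 without Tet2, beside -0.026 and -0.030 over all genes. Il2, the T cell growth factor gene, had 0.14 ± 0.17 in wild-type and -0.54 ± 0.17 in Tet2-deficient cells (adjusted p = 0.658 and 0.0669). Its wild-type signal was 7.15 and 6.68 on the Th1 arrays and 6.90 and 7.21 on the Th17 arrays. Without Tet2 it was 7.05 and 6.93 on the Th1 arrays and 6.63 and 6.27 on the Th17 arrays. The Tet2-deficient Th17 arrays were thus the lowest for Il2, as the Tet2-deficient Th1 arrays were for Il21. Il15, which sustains memory and natural killer cells, had -0.14 and -0.37, Il4 of Th2 cells -0.17 and -0.26, and Il9 and Il7 between -0.12 and 0.05, none passing. These genes lay under the median gene on every array: Il15 at 4.18 to 4.70, Il7 at 4.47 to 4.71, Il4 at 5.81 to 6.24 and Il9 at 5.92 to 6.18. At such low signal the lack of a call does not show that the subsets are alike.

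Of 7 receptor chains of the family that were measured, 2 were called lower in wild-type Th17 cells, Il15ra and Il21r, and 0 higher. Among all genes 3.44% were called lower and 4.97% higher in wild-type cells, and 3.79% and 6.32% in Tet2-deficient cells. The common gamma chain itself was not among the 7, so that part of the interleukin-21 receptor is not covered here. Il15ra, the specific chain for interleukin-15, fell 1.94-fold in wild-type (-0.96 ± 0.13, adjusted p = 0.00087) and 2.54-fold in Tet2-deficient Th17 cells (-1.34 ± 0.13, adjusted p = 5.7e-05). Its signal was 8.44 to 8.93 on the Th1 and 7.38 to 7.61 on the Th17 arrays, without overlap, as for 11.9% of all genes in this direction. In Tet2-deficient cells Il7r, the interleukin-7 receptor gene, was called higher in Th17 cells (0.55 ± 0.13, adjusted p = 0.0212), against 0.10 ± 0.13 in wild-type cells. The test of the difference between the genotypes did not pass (0.46 ± 0.19, adjusted p = 0.999). Il2ra and Il2rb, chains of the interleukin-2 receptor, had -0.12 to 0.04 and -0.29 to -0.23, Il9r -0.08 to 0.06, and Il4ra 0.23 to 0.36, none passing.

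The signalling genes downstream of the receptor split by direction. Of 10 genes measured on this list, Il21r included, 2 were called higher in Th17 cells in each genotype, Jak1 and Stat5b. Calls over all genes were 4.97% higher and 3.44% lower in wild-type cells, and 6.32% and 3.79% in Tet2-deficient cells. The common gamma chain gene and Janus kinase genes other than Jak1 were not among the 10. Jak1, a kinase bound to receptors of this family, had 0.50 ± 0.13 in wild-type and 0.74 ± 0.13 in Tet2-deficient cells (adjusted p = 0.0310 and 0.0030), with 10.39 to 10.50 on the Th1 and 10.85 to 11.24 on the Th17 arrays. Stat5b had 0.65 ± 0.12 and 0.51 ± 0.12 (adjusted p = 0.0060 and 0.0181). Ptpn6, which encodes the phosphatase SHP-1, was called lower in both genotypes, with -0.46 ± 0.13 and -0.56 ± 0.13 (adjusted p = 0.0458 and 0.0159). Stat3, the main STAT of interleukin-21, had -0.11 ± 0.15 and -0.05 ± 0.15 (adjusted p = 0.691 and 0.883), with 10.05 to 10.38 on the Th1 and 9.91 to 10.41 on the Th17 arrays, which overlapped. The feedback inhibitor genes Socs1 (0.52 and 0.12), Socs3 (0.16 and 0.30) and Cish (-0.04 and -0.34), with Stat5a (0.05 and -0.07) and Pias3 (0.19 and 0.02), did not pass. The list's median was 0.10 for the wild type and -0.015 without Tet2. Between genotypes, 0 of the 10 were called in either subset and 0 had an unadjusted p under 0.05 (limma), with log2 differences from -0.02 to 0.24 in Th1 and from -0.31 to 0.23 in Th17 cells.

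**Figure D3:**
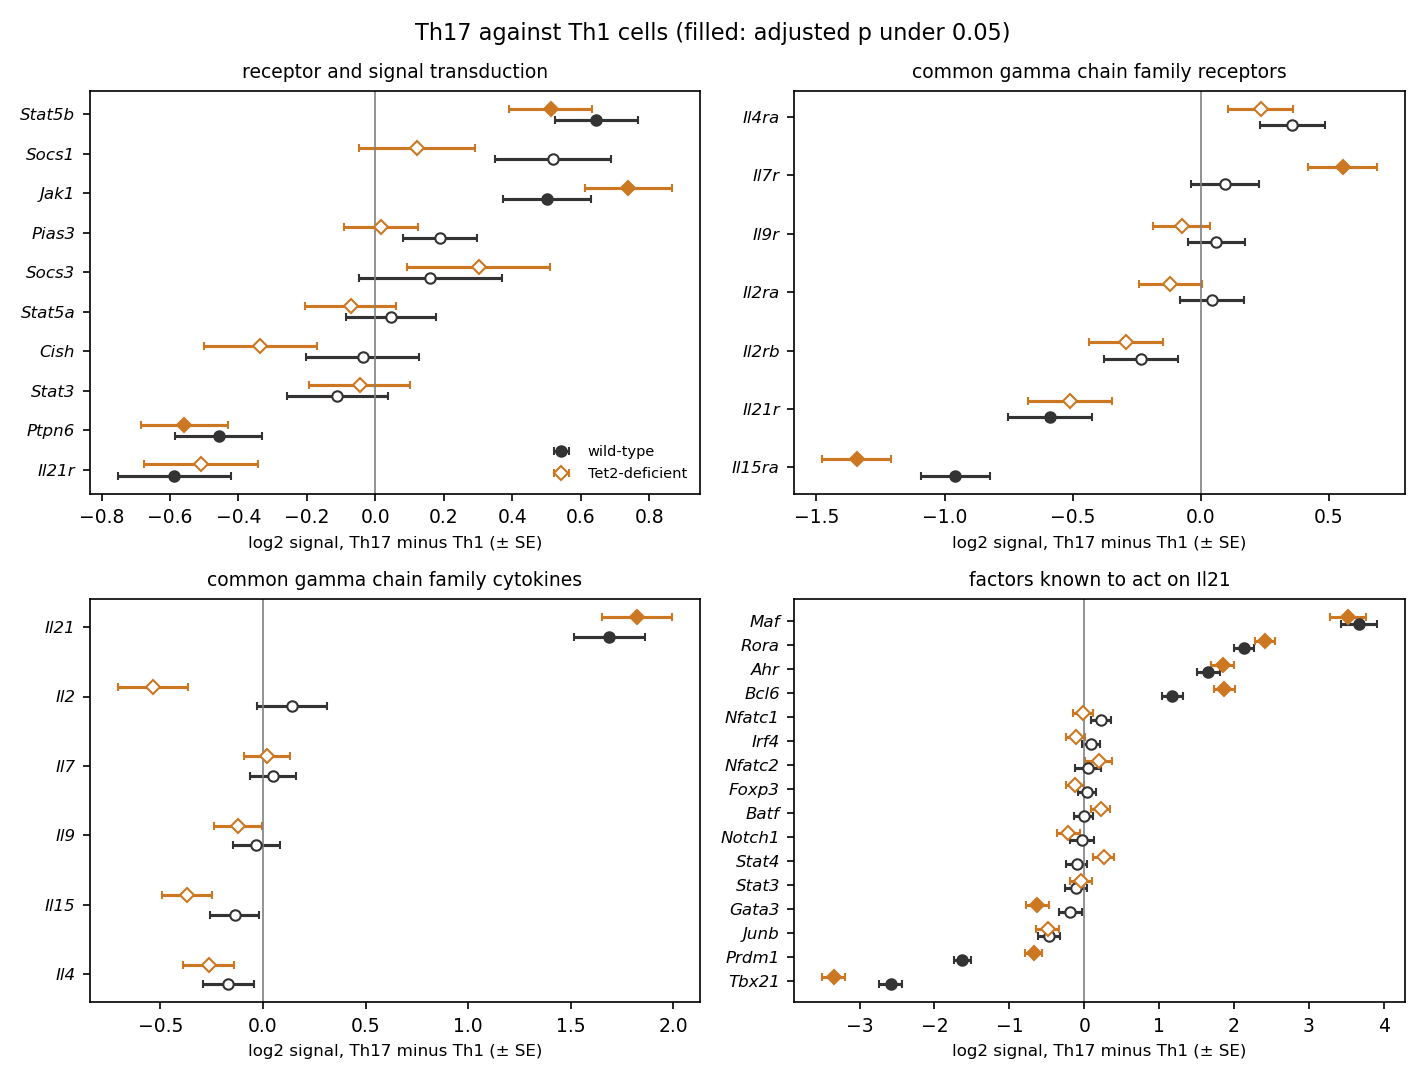
Th17 minus Th1 difference in log2 signal (± SE) in wild-type (circles) and Tet2-deficient cells (diamonds) for 4 gene lists around interleukin-21; filled symbols had an adjusted p under 0.05, and the horizontal scale differs between panels. Il21 stands alone among the family's cytokines, Il21r and Il15ra lie lowest among the receptors, and Maf lies highest among the factors, at 3.67 and 3.52.

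Of 16 transcription factors known to act on Il21 that were measured, 4 were called higher in Th17 cells in both genotypes: Maf, Rora, Ahr and Bcl6. Maf, which activates Il21 transcription, had the largest difference, 3.67 ± 0.24 in wild-type and 3.52 ± 0.24 in Tet2-deficient cells (adjusted p = 1.8e-06 and 2.6e-06). Its signal was 6.49 to 6.90 on the 4 Th1 arrays and 9.81 to 10.62 on the 4 Th17 arrays. Rora, a Th17 nuclear receptor gene, had 2.13 and 2.41, and Ahr, the aryl hydrocarbon receptor gene, 1.66 and 1.85. Bcl6, which encodes a transcriptional repressor that follicular helper cells need, had 1.18 and 1.87. Tbx21, which encodes T-bet, was called lower in Th17 cells in both genotypes (-2.58 and -3.34), as was Prdm1, which encodes the repressor Blimp-1 (-1.63 and -0.67), and Gata3 in Tet2-deficient cells (-0.63). Irf4, Batf, Stat3, Stat4, Nfatc1, Nfatc2, Junb, Notch1 and Foxp3 had differences between -0.49 and 0.26, none passing. Called members were 6 of 16 in wild-type and 7 of 16 in Tet2-deficient cells, with list medians of 0.017 and -0.032. Of all genes, 8.4% and 10.1% were called in these genotypes. The difference of Prdm1 between subsets was smaller without Tet2, but the test of that difference did not pass (adjusted p = 0.300). Between genotypes 0 of 16 passed (limma), 1 (Prdm1) having an unadjusted p under 0.05 in Th1 and 4 in Th17 cells. Maf had 0.09 ± 0.24 in Th1 and -0.06 ± 0.24 in Th17 cells.

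Genes known to respond to interleukin-21 in lymphocytes included many of the subset markers themselves. Of 18 measured, 8 were called higher and 5 lower in wild-type Th17 cells, and 7 higher and 5 lower in Tet2-deficient Th17 cells. The shares of all genes called were 4.97% higher and 3.44% lower in wild-type cells, and 6.32% and 3.79% in Tet2-deficient cells. Beside Il21, the genes higher in both genotypes were Il23r (4.53 and 4.20), Il17f (4.20 and 4.10), Il17a (3.78 and 3.07), Maf, Bcl6 and Id2 (1.01 and 1.21). Those lower in both were the cytotoxic effector genes Gzmb (-4.85 and -4.72) and Prf1 (-0.98 and -0.83), with Eomes (-1.33 and -1.40) and Prdm1. Il10, an anti-inflammatory cytokine gene, passed in wild-type cells alone (0.43 ± 0.11, adjusted p = 0.0275, against 0.07 ± 0.11), and Pim1, a kinase gene, in Tet2-deficient cells alone (-0.52 ± 0.14, adjusted p = 0.0351, against -0.31 ± 0.14). The test of the difference between genotypes called 0 of 18 genes, 4 with an unadjusted p under 0.05, so neither gene is shown to differ in this way. Il10 lay between 3.96 and 4.50 on the arrays, under the median gene. Socs3, a STAT3 target, and Bcl3, Batf and Gzma did not pass. The list's median was 0.078 for the wild type and 0.15 without Tet2.

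Follicular helper T cell genes were counted because Il21 is the characteristic cytokine of those cells. Of 19 measured, 8 were called higher in Th17 cells in each genotype, Il21, Bcl6, Icos, Il6st, Lef1, Cxcr4, Pou2af1 and Slamf6, and 2 lower, Pdcd1 and Cd200. Over all genes, 4.97% were called higher and 3.44% lower for the wild type, and 6.32% and 3.79% without Tet2. Icos, the costimulatory receptor gene, had 0.92 ± 0.13 and 0.63 ± 0.13, and Pou2af1, a transcriptional coactivator gene, 1.47 ± 0.17 and 1.17 ± 0.17. Pdcd1, which encodes PD-1, had -0.67 ± 0.15 and -0.91 ± 0.15. Cxcr5, the homing receptor gene that defines follicular helper cells, had 0.18 and 0.23 with 4.75 to 5.30 over all arrays, and was not called. Sh2d1a, which encodes the adaptor SAP, and Cd40lg had lower values in Tet2-deficient cells of both subsets, as Il21 did, without passing: -0.66 and -0.30 for Sh2d1a and -0.30 and -0.35 for Cd40lg. Bcl6 was the other way, with 0.75 ± 0.14 for Tet2-deficient minus wild-type in Th17 cells (adjusted p = 0.377). The list's median between subsets was 0.38 for the wild type and 0.29 without Tet2.

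Receptors for the cytokines that promote Il21 were also unevenly distributed. Of 10 genes measured, 6 were called higher and 1 lower in wild-type Th17 cells, and 4 higher and 2 lower in Tet2-deficient Th17 cells. These counts stand beside 4.97% of all genes called higher and 3.44% lower in wild-type cells, and 6.32% and 3.79% in Tet2-deficient cells. Il6st, the shared signalling chain of the interleukin-6 receptor, had 0.50 ± 0.11 and 0.46 ± 0.11, and Tgfbr2 0.64 ± 0.14 and 0.87 ± 0.14, passing in both genotypes. Il27ra (1.12 and 0.49) and Tgfbr1 (1.15 and 0.41) passed in wild-type cells alone, and Il12rb1 (-0.20 and -0.59) in Tet2-deficient cells alone, but the test of the difference between genotypes passed for none of these 3 (adjusted p of 0.980 or more). Il12rb2, a chain of the interleukin-12 receptor, was lower in both (-1.64 and -1.31), while Il6ra (0.58 and 0.35) did not pass. The list's median was 0.61 and 0.44. Il6 itself lay between 3.49 and 3.81 on the arrays, under the median gene.

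Over the 71 genes measured on these 7 lists, 32 were called between subsets in wild-type and 32 in Tet2-deficient cells, of which 28 were shared and all 28 had the same sign. The shared genes were 87.5% of either set. Over all genes, 8.4% were called in wild-type and 10.1% in Tet2-deficient cells. Of these, 1021 genes were called in both genotypes, 61.0% of the wild-type and 50.7% of the Tet2-deficient calls. The group means compared in wild-type and in Tet2-deficient cells share no array. Both tests took each gene's error from all arrays together, however, so the calls in the genotypes are not independent of each other. Il21r was among the 4 genes called in wild-type cells alone, with Il10, Il27ra and Tgfbr1, and the 4 called in Tet2-deficient cells alone were Gata3, Il12rb1, Il7r and Pim1. Averaged over genotypes, 42 of the 71 were called (25 higher and 17 lower), among them Il4ra, Il6ra, Tox2, Bcl3, Cd40lg and Junb, which passed in neither genotype alone. In this average 22.2% of all genes were called. Between genotypes, 0 of the 71 were called in Th1 and 0 in Th17 cells, where 7 and 14 had an unadjusted p under 0.05. Of all 19938 genes, 1206 and 824 had such a p. The lists hold known T helper genes and were chosen with earlier results in view, so their counts describe them and were not tested against other genes.

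Il21 (gene ID 60505) lies on chromosome 3 at 37222759 to 37232636 in GRCm38, next to Il2, which ends 96805 bases away. Neighbouring protein-coding genes were read because cytokine genes often lie in shared loci. Il2 did not share the rise of Il21 in Th17 cells. Fgf2, a fibroblast growth factor gene 115841 bases on the other side, did. The signal of Fgf2 was 6.92 to 7.53 on the Th1 and 8.52 to 8.94 on the Th17 arrays, without overlap, as for 12.7% of all genes. Its differences were 1.72 ± 0.16 in wild-type and 1.06 ± 0.16 in Tet2-deficient cells (adjusted p = 2.9e-05 and 0.00094). Cetn4 and Bbs12, which lie between Il21 and Fgf2, had -0.12 and -0.02, and 0.40 and 0.48, and did not pass. Adad1 (-0.14 and 0.05) and 4932438A13Rik (0.35 and 0.20), beyond Il2, did not pass either. Averaged over genotypes, Bbs12 (0.44 ± 0.11, adjusted p = 0.0146) and 4932438A13Rik (0.28 ± 0.09, adjusted p = 0.0469) were called higher in Th17 cells.

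Il21r (gene ID 60504) lies on chromosome 7 at 125603252 to 125634397, 23778 bases from Il4ra, which encodes the interleukin-4 receptor chain. Il4ra had the opposite sign, 0.36 ± 0.13 and 0.23 ± 0.13 (adjusted p = 0.103 and 0.281). The other neighbours, Kdm8, Nsmce1, Gtf3c1, D430042O09Rik and Gsg1l, had differences between -0.19 and 0.36, and 0 of the 6 neighbours were called in either genotype. Averaged over genotypes, Il4ra was called higher (0.30 ± 0.09, adjusted p = 0.0329). Il21r was therefore the single gene of its stretch called in wild-type cells. Between genotypes no neighbour of either gene was called in either subset.

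**Figure D4:**
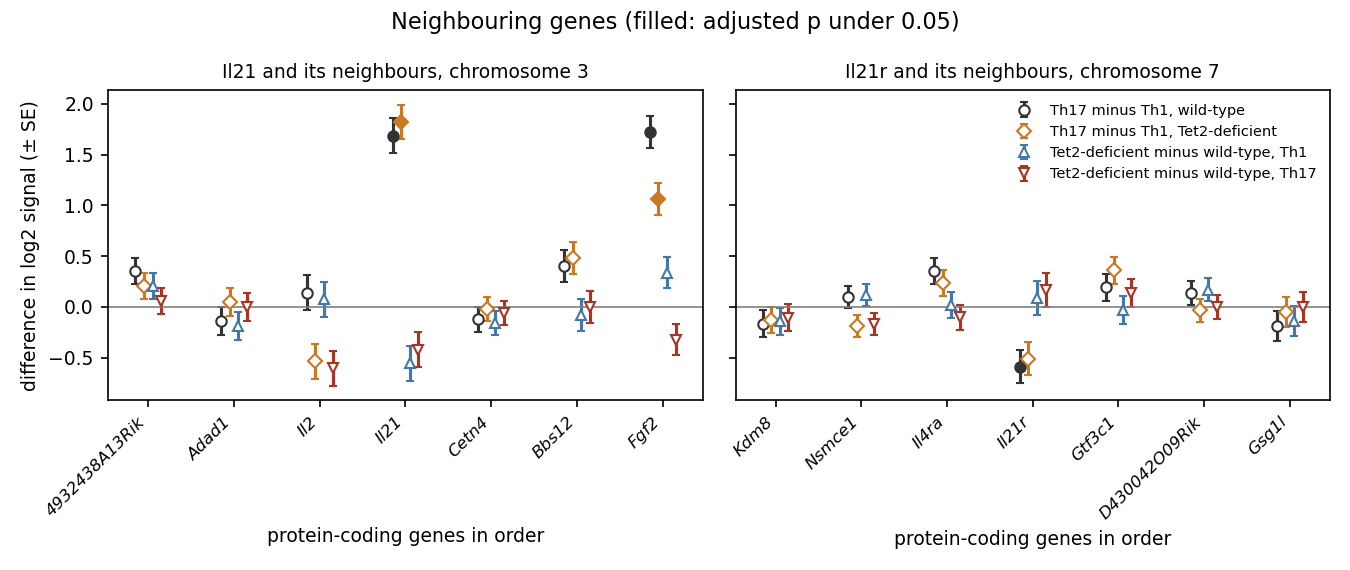
Differences in log2 signal (± SE) for Il21 (left) and Il21r (right) with 3 protein-coding genes on each side, in chromosome order and not to scale; circles and diamonds are Th17 minus Th1 in wild-type and Tet2-deficient cells, triangles Tet2-deficient minus wild-type in Th1 (up) and Th17 cells (down). Filled symbols, with an adjusted p under 0.05, occur for Il21, Fgf2 and, in wild-type cells, Il21r.

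The genes whose profile over the 8 arrays was closest to that of Il21 were Arhgap15, Themis, Tec, Mgll and Ssh2. Closeness was the root-mean-square difference between signals centred on each gene's mean, among 9968 other genes at or above the median level. It was 0.28 for Arhgap15 and 0.31 for Ssh2, against a spread of 0.93 of Il21 about its own mean. Themis, which encodes a T cell signalling protein, had Tet2-deficient Th1 arrays below the wild-type ones, as Il21 did, without passing (8.64 and 8.62 for the wild type, 7.69 and 8.09 without Tet2, -0.74 ± 0.15, adjusted p = 0.549). Mgll, a lipase gene, had 6.81 and 6.57 without Tet2 against 7.09 and 6.87 (-0.29 ± 0.14, adjusted p = 0.829). Tec, a kinase gene, had 5.69 to 6.14 on the Th1 and 7.39 to 7.53 on the Th17 arrays, and its Th1 arrays overlapped between genotypes. Arhgap15 and Ssh2 did not share the lower Tet2-deficient signal, with 0.02 and 0.01 in Th1 and 0.04 and 0.12 in Th17 cells. These genes were picked for likeness over the same arrays, so a shared genotype difference is not independent of that choice.

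The spread of Il21r about its mean was smaller, 0.32, so its differences from other genes cannot be set beside those of Il21. Closest to Il21r was Nfkbie, which encodes an inhibitor of NF-kappaB, at 0.066, followed by B4galnt1 (0.10), Ptpn6 (0.10), Rabac1 (0.11) and Trim8 (0.11). Nfkbie had 7.74 to 7.93 on the Th1 arrays, and on the Th17 arrays 7.08 and 7.45 for the wild type and 7.48 and 7.09 without Tet2, with the same order of the replicates within each Th17 group as Il21r. Ptpn6 was also on the list of signalling genes described above. These are descriptions over 8 arrays that fall into 2 subsets, of genes picked for likeness on those same arrays.

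**Figure D5:**
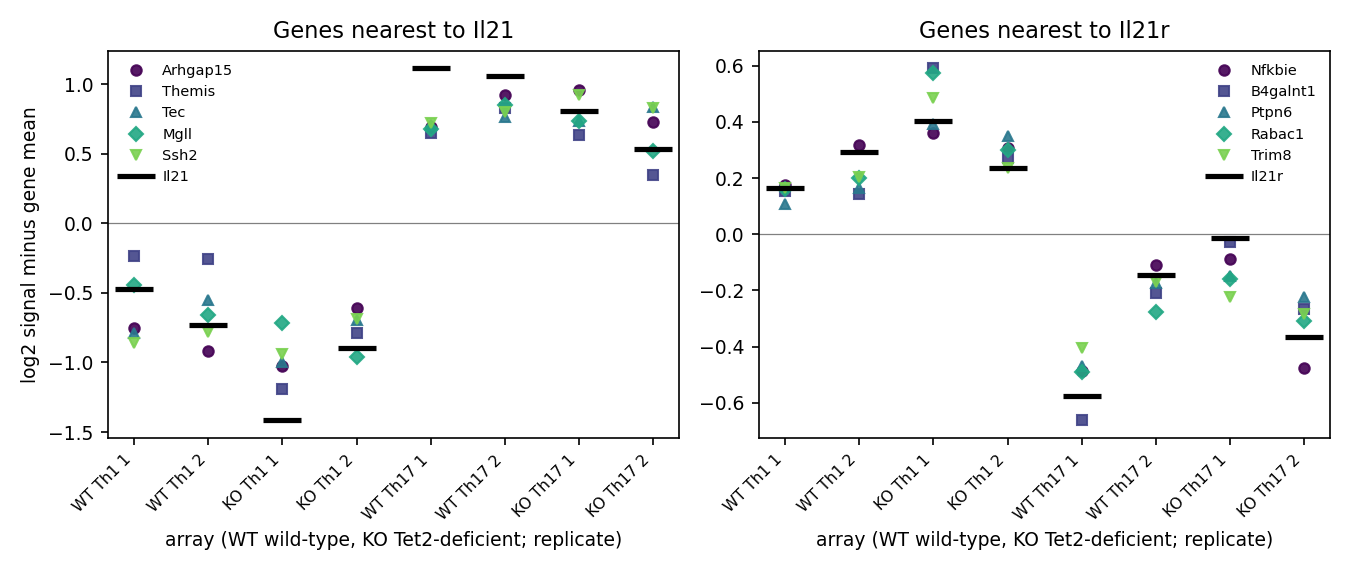
Log2 signal minus the gene's mean on the 8 arrays (WT, wild-type; KO, Tet2-deficient; replicate number last) for Il21 (left, bars) and Il21r (right, bars) with the 5 genes of closest profile (symbols). The bars of Il21 span a wider range than those of Il21r (spread 0.93 against 0.32), and in each panel the symbols lie on the same side as the bars in Th1 and in Th17 cells.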

How the data were processed

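The authors deposited log2 probe-set signals for 35556 probe sets on 8 arrays. Per the submitters' processing notes, the tools were Affymetrix Expression Console, GCOS and RMA; their order and options are not given in the sources used here. RMA puts arrays on a common scale, and the deposited log2 values were used without further scaling. Precision is limited by having 2 arrays in a group.

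Probe sets with 1 symbol (21789) were named by the platform annotation, and the probe set with the highest mean was kept per gene. The tests used limma 3.58.1 under R 4.3.3 (lmFit on 4 group means, eBayes with an intensity trend, 4 residual and 8.32 prior degrees of freedom), two-sided, with Benjamini-Hochberg adjustment over 19938 genes. Calls required an adjusted p below 0.05, and values after ± are standard errors unless SD is written. The method was tested on simulated data.

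The members, lists and tests were chosen with earlier results of these data known. Named genes were all measured members of the signalling, cytokine and receptor lists, called or largest members of other lists, neighbours, and closest profiles. Sh2d1a, Cd40lg and the called markers were singled out after their values were seen. Of 78 listed genes, 71 were measured, and the others were not analysed here. The labels do not say that replicates came from separate mice, so p-values measure the spread between these arrays. Alternatives were a replicate block, fits on the compared arrays alone, a filter on low signal, all or averaged probe sets, 2 normalizations, 2 variance models, the female share and leaving out each array.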

Additional observations from a re-analysis of the deposited data

How the results depend on the processing

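Il21 kept its call and direction between subsets under all alternatives in each genotype and in their mean. Its genotype differences kept their direction and did not pass in Th1 cells, in Th17 cells or in the mean. The Il21r difference between wild-type subsets lost its call in 12 of 18 alternatives. These were the replicate block (-0.59, adjusted p = 0.0717), only the arrays compared (-0.59, 0.0762), all probe sets (-0.59, 0.150), centred arrays (-0.55, 0.0586), the female share (-0.56, 0.106) and 7 left-out arrays (-0.80 to -0.37 over all 8). In Tet2-deficient cells Il21r gained a call with only the arrays compared (-0.51, adjusted p = 0.0441), the filter on low signal (-0.51, 0.0454) and repeated quantile normalization (-0.56, 0.0375), over a range of 0.0375 to 0.404. Averaged over genotypes it lost its call with the female share (-0.50, 0.0755). With an array left out, signs turned for the Il21r genotype difference in Th17 cells (-0.046 to 0.39) and for the difference between the subsets' genotype effects (Il21 -0.12 to 0.39, Il21r -0.14 to 0.29). The cause was not tested.

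Counts over all genes moved more. Wild-type subset calls, 1675, ran from 599 (all probe sets) to 1790, with 1101 on the arrays compared and 663 to 1551 with an array left out. Tet2-deficient subset calls, 2015, ran from 726 (female share) to 2346, with 1001 for all probe sets and 801 to 2335 with an array left out. Calls in the mean, 4417, fell to 2054 with the female share and lay between 2651 and 4459 with an array left out. Genotype calls lay between 0 and 2 in Th1 (1 as reported) and between 0 and 4 in Th17 cells (0), between 0 and 5 in their mean (0) and between 0 and 4 for their difference (0). Calls on the IL-21 lists, 32 in each genotype, ran from 23 to 35 in wild-type and from 22 to 37 in Tet2-deficient cells. The replicate block changed no other call on either gene. Replicate numbers share no source in the labels, and same-numbered deviations correlated at -0.19 to 0.061 across genes. For means and differences over all 4 groups, a fit on the arrays compared equals the fit used and was not run.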
